A study of Mus musculus with 8 samples.

Results

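The miR-26 and miR-101 families are small groups of microRNAs (miRNAs), short RNAs that pair with messenger RNAs and lower their output. Their mouse members on the array were mmu-miR-26a-5p, mmu-miR-26b-5p, mmu-miR-101a-3p, mmu-miR-101b-3p and mmu-miR-101c, taken by name from the non-control spots. They were 5 of the 1881 miRNAs on the array, and 4 of the 338 miRNAs that passed the detection filter and were tested.

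Whole kidneys were compared between an LPS group and a sham group on 1-colour Agilent arrays, with 4 arrays in each group. Mice of the LPS group carried a model of septic acute kidney injury: lipopolysaccharide (LPS), from the outer membrane of bacteria, was injected into the peritoneum at 10 µg per g of body weight. Mice of the sham group received normal saline by the same injection, and kidneys of both groups were taken after 24 h. From each kidney sample 30 mg of tissue gave the RNA, and 100 ng of total RNA was labelled with Cy3. The sources used here do not give strain, sex or age. The labels number the arrays 6, 10, 11 and 12 in the LPS group and 5, 6, 7 and 8 in the sham group but do not say that each came from a separate animal, so p-values measure only the spread between these samples, which may be technical.

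A miRNA is guided to its targets mainly by its seed, bases 2 to 8 counted from the 5′ end. Both families are known as repressors of Ezh2, the enzyme of Polycomb repressive complex 2 that places a repressive methyl mark on histones, a relation described mostly in tumour cells. The miR-26 genes lie inside genes of the Ctdsp family, which encode phosphatases of the RNA polymerase II tail. Members of both families are usually counted among broadly expressed miRNAs. The array measured mature miRNAs only, so the level of Ezh2 itself is not analysed here.

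The mature sequences, from RefSeq on build GRCm38.p6, show which members share a seed and which the array could separate. Capitals mark the seed.
miR-26a-5p: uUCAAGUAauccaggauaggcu
miR-26b-5p: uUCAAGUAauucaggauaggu
miR-101a-3p: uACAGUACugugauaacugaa
miR-101b-3p: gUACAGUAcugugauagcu
miR-101c: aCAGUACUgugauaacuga

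miR-26a-5p and miR-26b-5p had the same seed and were the only 2 mature miRNAs in the RefSeq table to hold it. Counted from the 5′ end of miR-26a-5p, they differed by C11U and C21U, and miR-26b-5p was 1 base shorter (21 against 22 bases). The 3 miR-101 entries were one core sequence with different first bases, so their bases 2 to 8 were not the same letters. miR-101b-3p began 1 base before miR-101a-3p and differed from it over the 18 aligned bases by A16G, counted from the 5′ end of miR-101a-3p. miR-101c was identical to bases 2 to 20 of miR-101a-3p.

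The 5 members came from 6 places in the genome (GRCm38.p6). miR-26a-5p is made from both Mir26a-1, on the plus strand at chr9:119031811-119031832 within the span of Ctdspl, and Mir26a-2, on the plus strand at chr10:126995543-126995564 within Ctdsp2. The array cannot tell the products of these genes apart. miR-26b-5p lies on the plus strand at chr1:74394324-74394344 within Ctdsp1. miR-101a-3p lies on the minus strand at chr4:101346957-101346977 within the long noncoding RNA gene E130102H24Rik. miR-101b-3p lies on the plus strand at chr19:29135338-29135356 within Rcl1, and miR-101c on the minus strand at chr9:3038680-3038698, in the span of no other gene of the RefSeq table.

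The arrays were alike in quality. Between 336 and 375 miRNAs were detected per array, 15.8% to 17.5% of non-control spots were well above background, and no non-control spot was saturated. A single slide, scanned in 1 run, held all 8 arrays, with the LPS arrays in row 2 and the sham arrays in row 1, and the row of the slide and the group therefore cannot be told apart. The tissue label was checked against marker miRNAs: 6 of 6 kidney tubule miRNAs were detected on all 8 arrays, and miR-122-5p, the defining liver miRNA, was detected on none. Of the markers of other tissues, miR-133a-3p and miR-206-3p of striated muscle and miR-124-3p of brain were likewise detected on none, whereas miR-1a-3p of striated muscle and miR-9-5p of brain were detected on all 8. Between LPS and sham kidneys, 3 of 6 tubule miRNAs fell, miR-192-5p, miR-194-5p and miR-204-5p (limma, 25.4% of all tested miRNAs were lower). The other 3 did not pass: miR-30a-5p was at -0.11 log2, miR-10a-5p at 0.10 and miR-10b-5p at 0.11. Of 4 leukocyte miRNAs 2 rose, miR-223-3p and miR-155-5p (14.8% of all were higher). The other 2 did not pass and went opposite ways, miR-142a-3p at 0.26 log2 and miR-150-5p at -0.22. Of 2 smooth muscle miRNAs miR-145a-5p fell (25.4% of all were lower), and miR-143-3p did not pass (0.05 log2, limma adjusted p = 0.591). The part of these cell types in the values below was not tested. Levels below are on a log2 scale, as signal over the array's 75th percentile, and each is for one miRNA across arrays, since signals of different probes cannot be ranked.

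None of the 4 tested members passed the test between LPS and sham kidneys (limma, Benjamini-Hochberg adjusted p under 0.05), and 0 of 4 had an unadjusted p under 0.05. Over all 338 tested miRNAs, 40.2% passed at the adjusted threshold, 14.8% higher and 25.4% lower in LPS kidneys. The share of all miRNAs with an unadjusted p under 0.05 is not given here. The groups overlapped for each of the 4 members, whereas they did not overlap for 37.0% of all tested miRNAs. The fitted differences of the 4 members had a median of -0.04 log2, against -0.08 over all tested miRNAs. In whole tissue, fewer cells of a type and less RNA per cell cannot be told apart.

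miR-26a-5p had levels of 4.46, 4.66, 4.52 and 4.60 on LPS replicates 6, 10, 11 and 12, against 4.65, 4.73, 4.59 and 4.55 on sham replicates 5, 6, 7 and 8. LPS replicate 6 was the lowest array and sham replicate 6 the highest. LPS replicates 10 and 12 lay within the sham range, and LPS replicates 6 and 11 lay below it. The means were 4.56 ± 0.09 in LPS and 4.63 ± 0.08 in sham kidneys (SD, n = 4 each). The difference was -0.07 ± 0.06 log2 (SE, limma adjusted p = 0.405), with a 95% interval from -0.22 to 0.08. In linear terms the LPS level was 0.952 of the sham level, with an interval from 0.858 to 1.06.

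miR-26b-5p had levels of 3.11, 3.28, 3.099 and 3.18 on LPS replicates 6, 10, 11 and 12, against 3.15, 3.29, 3.22 and 3.21 on sham replicates 5, 6, 7 and 8. The highest LPS array, replicate 10, lay just under the highest sham array, replicate 6. The means were 3.17 ± 0.09 in LPS and 3.22 ± 0.06 in sham kidneys (SD, n = 4 each). The difference of -0.05 ± 0.06 log2 (SE, limma adjusted p = 0.554) had a 95% interval from -0.19 to 0.09, or a linear ratio between 0.877 and 1.06. Its spread within groups (pooled SD 0.07) was below that of most tested miRNAs, at the 17.9th percentile, and that of miR-26a-5p (0.08) was at the 22.9th percentile.

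miR-101a-3p, encoded within a long noncoding RNA gene, had levels of 2.05, 2.27, 1.93 and 2.02 on LPS replicates 6, 10, 11 and 12, against 1.99, 2.08, 2.08 and 2.07 on sham replicates 5, 6, 7 and 8. The LPS arrays spread on both sides of the sham arrays: replicate 10 was above every sham array and replicate 11 below every one. The means were 2.07 ± 0.14 in LPS and 2.05 ± 0.04 in sham kidneys (SD, n = 4 each). The difference of 0.01 ± 0.08 log2 (SE, limma adjusted p = 0.894) had a 95% interval from -0.16 to 0.19, a linear ratio between 0.895 and 1.14. Without LPS replicate 10 it was -0.05, and without sham replicate 5 it was -0.01.

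miR-101c had levels of 1.78, 2.01, 1.68 and 1.77 on LPS replicates 6, 10, 11 and 12, against 1.76, 1.85, 1.85 and 1.87 on sham replicates 5, 6, 7 and 8. The same LPS arrays, 10 and 11, again lay above and below every sham array. The means were 1.81 ± 0.14 in LPS and 1.83 ± 0.05 in sham kidneys (SD, n = 4 each). The difference was -0.02 ± 0.08 log2 (SE, limma adjusted p = 0.83, 95% interval -0.20 to 0.15), a linear ratio between 0.872 and 1.11. Without LPS replicate 11 it was 0.02.

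**Figure D1:**
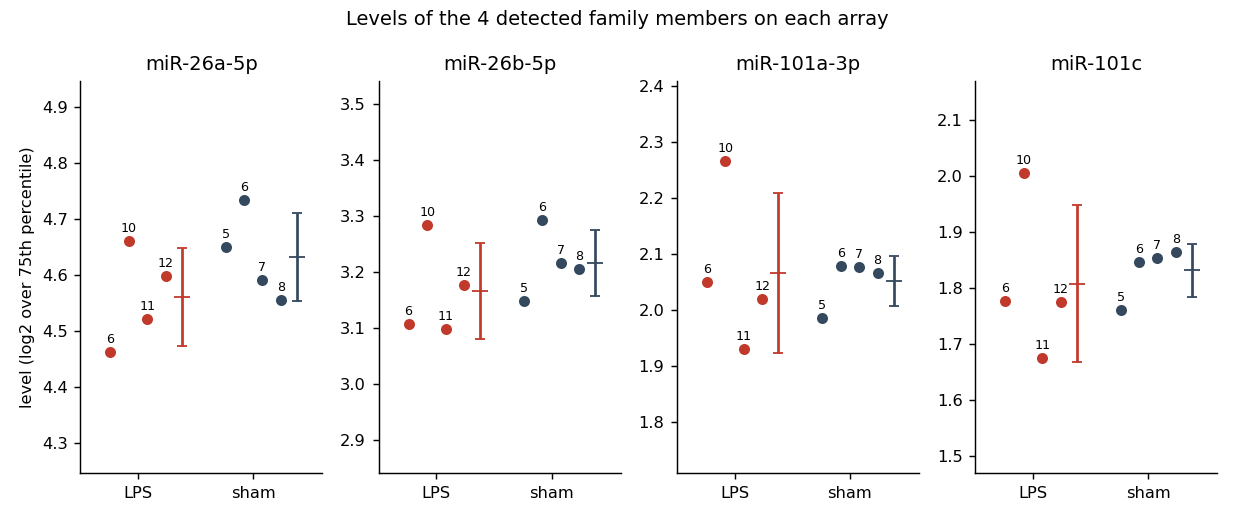
Level of each detected member (log2 signal over the 75th percentile of the array) on the 4 LPS and the 4 sham arrays, with the replicate number at each point; bars show the group mean ± SD. The groups overlap in each panel, LPS replicate 10 is the highest LPS array in all 4, and the LPS points of both miR-101 members (SD 0.14) spread more widely than the sham points (SD 0.04 for miR-101a-3p and 0.05 for miR-101c). The panels have separate level axes of equal length.

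LPS replicate 10 was the highest LPS array for each of the 4 members. The pooled SDs of miR-101a-3p (0.11) and miR-101c (0.10) stood at the 41.6th and 39.8th percentiles of all tested miRNAs, whose median was 0.12. The smallest difference that passed the test anywhere on the array was 0.13 log2 in size, and the median size among the 136 that passed was 0.45. Each member's fitted difference was smaller in size than 0.13.

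**Figure D2:**
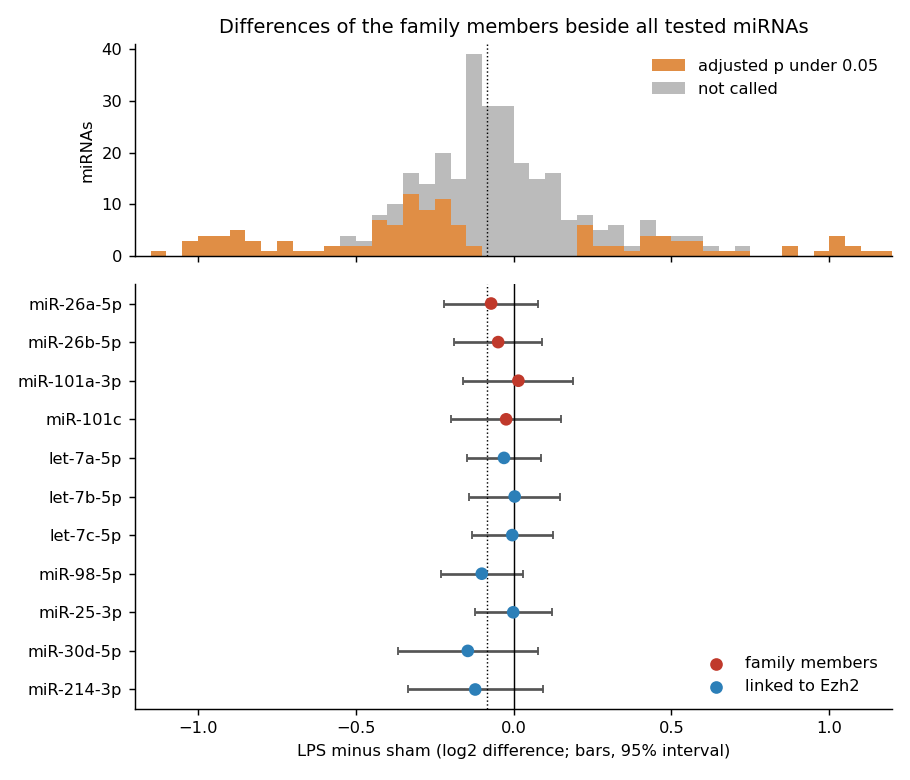
Upper panel, number of miRNAs by LPS minus sham difference (log2), with those past an adjusted p of 0.05 in orange; lower panel, differences with 95% intervals for the 4 detected members and 7 other miRNAs linked to Ezh2. The dotted line is the median of all tested miRNAs (-0.08), the intervals of the 4 members include 0, and 11 miRNAs beyond 1.2 in either direction, miR-144-3p among them, lie outside the axis.

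Each detected member had 2 probes of different length, with 15 spots each per array, and all 120 spots of each of these 8 probes were well above background. The probes of one member gave close differences between LPS and sham. For miR-26a-5p the difference was -0.05 ± 0.06 log2 with the 16-base probe and -0.10 ± 0.06 with the 15-base probe (SE). For miR-26b-5p it was -0.05 with the 20-base probe and also with the 19-base probe. For miR-101a-3p it was 0.01 with the 21-base and 0.02 with the 20-base probe, and for miR-101c -0.02 with the 19-base and -0.04 with the 18-base probe.

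The probes of the miR-101 members, as the files give them, show what the array can and cannot separate. They are written 5′ to 3′, and the capital is the base opposite position 16 of miR-101a-3p.
miR-101a-3p probe of 21 bases: ttcagTtatcacagtactgta
miR-101a-3p probe of 20 bases: ttcagTtatcacagtactgt
miR-101b-3p probe of 19 bases: agCtatcacagtactgtac
miR-101b-3p probe of 18 bases: agCtatcacagtactgta
miR-101c probe of 19 bases: tcagTtatcacagtactgt
miR-101c probe of 18 bases: tcagTtatcacagtactg

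Both miR-101c probes pair with miR-101a-3p along their whole length, 19 and 18 bases with 0 mismatches. Both miR-101a-3p probes likewise pair with all 19 bases of miR-101c with 0 mismatches, leaving 1 or 2 end bases unpaired. Signal at either pair of probes therefore cannot be assigned to one of these 2 miRNAs, and the values above named miR-101a-3p and miR-101c are those of the probes so named. The 18-base probe of miR-101b-3p pairs with miR-101a-3p at 17 of 18 bases, with 1 mismatch. The probes of miR-26a-5p meet miR-26b-5p with 2 mismatches and 1 unpaired end base, and those of miR-26b-5p meet miR-26a-5p with 2 mismatches. The files list the probes of miR-101b-3p and miR-101c as unmapped on mm9.

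miR-101b-3p, the miR-101 form encoded within Rcl1, was not well above background on any of the 8 arrays. Its 19-base probe had mean signals of 12.8, 15.9, 13.4 and 10.5 intensity units on LPS replicates 6, 10, 11 and 12, against 12.7, 11.7, 11.1 and 12.7 on sham replicates 5, 6, 7 and 8. The groups overlapped, and 8 of its 120 spots were well above background. Its 18-base probe gave 1.45 to 5.25 units with 0 of 120 spots well above background, so no fold change is given. This describes signal at these probes only.

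The scanner software's own total signal for miR-101b-3p was at its fill value of 0.1 on 5 arrays. It was 4.43 on LPS replicate 10, 3.75 on LPS replicate 11 and 3.54 on sham replicate 8. In the authors' deposited table of ratios, the same 3 arrays stood at 5.33, 5.16 and 5.04 log2 and the other 5 arrays near 0 (from -0.14 to 0.01). For this member the ratios of that table set apart 2 LPS arrays and 1 sham array on which it did not count as detected.

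The partner strands of the same hairpins were miR-26a-1-3p, miR-26a-2-3p, miR-26b-3p, miR-101a-5p and miR-101b-5p. All 5 were on the array and none was detected on any of the 8 arrays. The strands detected were thus the 5p strands of the miR-26 hairpins and a strand matched by the probes of miR-101a-3p and miR-101c, in LPS and sham kidneys alike.

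Differences between the members were also read within each array, where a common scaling factor cancels. The log2 ratio of miR-26b-5p over miR-26a-5p averaged -1.39 ± 0.03 in LPS and -1.42 ± 0.07 in sham kidneys (SD, n = 4 each), a difference of 0.02 (2-sided exact permutation p = 0.571, also after adjustment). The ratio of miR-101a-3p over miR-26a-5p averaged -2.49 ± 0.11 in LPS and -2.58 ± 0.09 in sham kidneys, a difference of 0.09 (2-sided exact permutation p = 0.286, adjusted over the 3 ratios computed 0.429). Both differences were smaller than the SD between arrays within either group.

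The ratio of miR-101c over miR-101a-3p was -0.27, -0.26, -0.25 and -0.25 on LPS replicates 6, 10, 11 and 12, against -0.22, -0.23, -0.22 and -0.20 on sham replicates 5, 6, 7 and 8. Every LPS array was below every sham array. The difference was -0.04 log2, a linear factor of 0.974, with a 2-sided exact permutation p of 0.0286, the smallest that 4 against 4 arrays allow, and 0.0857 adjusted over the 3 ratios. It did not pass after adjustment, and it took the opposite sign (0.06) with quantile scaling. The 3 ratios were not among the planned tests and do not cover every pair of detected members. A ratio was also taken within single miRNAs, of the shorter over the longer probe. It separated the groups in 23.8% of the 210 miRNAs with a pair of probes above background. miR-101a-3p and miR-101c belong to the 210, but their groups overlapped in this ratio. The share is for probes of a single miRNA, and no share is given for ratios between miRNAs. The row of the slide cannot be told apart from the group here.

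**Figure D3:**
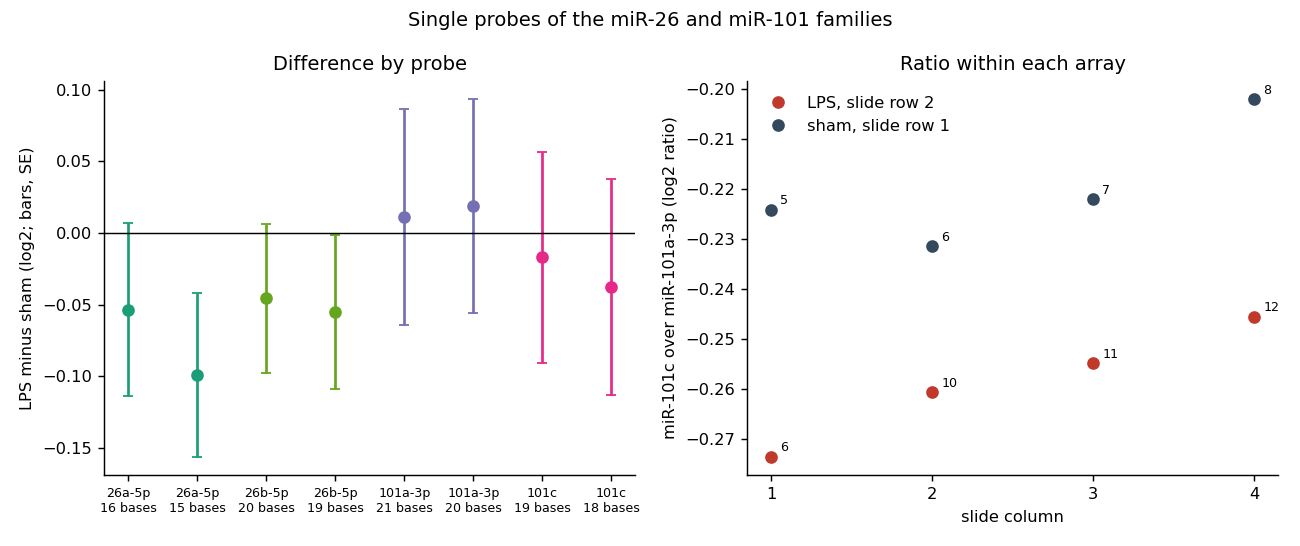
Left, LPS minus sham difference (log2, bars ± SE over 4 and 4 arrays) for each of the 8 probes of the detected members; right, log2 ratio of miR-101c over miR-101a-3p on each array by slide column, LPS arrays in row 2 and sham arrays in row 1, with replicate numbers. The probe differences lie between -0.10 and 0.02, and the ratios of the LPS arrays (-0.27 to -0.25) lie below those of the sham arrays (-0.23 to -0.20) in a range of 0.07 log2 in all.

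Other miRNAs reported to repress Ezh2, mostly in human tumour cells, were taken as a list of 12. Of these, miR-124-3p, miR-137-3p, miR-138-5p and miR-217-5p were detected on no array, and 8 were tested. One, miR-144-3p, was called higher in LPS kidneys, none was called lower and 7 did not pass the limma test. Over all tested miRNAs, 14.8% were higher and 25.4% lower. miR-144-3p entered the test through the LPS arrays alone, and its call was lost under 7 of its 23 alternatives. At an unadjusted p under 0.05, where no share over all miRNAs is given, the counts of the list were likewise 1 higher and 0 lower. The median difference of the 8 was -0.02 log2, against -0.08 over all tested miRNAs.

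The let-7 members, a large family known for repressing growth-promoting genes, had differences close to 0: -0.03 ± 0.05 log2 for let-7a-5p, 0.003 ± 0.06 for let-7b-5p and -0.004 ± 0.06 for let-7c-5p (SE, limma adjusted p = 0.67, 0.962 and 0.953). miR-98-5p, of the same family, was at 0.17 ± 0.08 in LPS and 0.27 ± 0.03 in sham kidneys (SD, n = 4 each), a difference of -0.10 log2 (limma adjusted p = 0.187). miR-25-3p, of the miR-106b cluster, differed by -0.001 ± 0.05 log2 (SE, limma adjusted p = 0.98). The groups overlapped for each of these 5.

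miR-30d-5p and miR-214-3p had wider intervals. miR-30d-5p averaged 1.32 ± 0.16 in LPS and 1.47 ± 0.13 in sham kidneys (SD, n = 4 each), a difference of -0.15 log2 with a 95% interval from -0.37 to 0.08 (limma adjusted p = 0.258). It was -0.08 without LPS replicate 6 and also without sham replicate 6, the array that stood highest. miR-214-3p, often studied in fibrosis of the kidney, averaged -2.38 ± 0.15 in LPS and -2.26 ± 0.13 in sham kidneys, a difference of -0.12 log2 (limma adjusted p = 0.323), and -0.19 to -0.07 when each array was left out.

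miR-144-3p, which is made together with miR-451a in red cell precursors, has the same bases 2 to 7 as miR-101a-3p and differs in the last seed base by C8U. Its sequence is shown for that near match.
miR-144-3p: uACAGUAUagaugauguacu

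In RefSeq, miR-101a-3p and miR-144-3p were the only 2 mouse miRNAs with these bases 2 to 7. miR-144-3p lies on the plus strand at chr11:78073047-78073066 (GRCm38.p6). Its levels were -0.15, -2.80, -0.69 and -1.26 on LPS replicates 6, 10, 11 and 12, against -3.38, -4.68, -4.42 and -2.25 on sham replicates 5, 6, 7 and 8. It was detected on all 4 LPS arrays and on 2 of the 4 sham arrays, and the groups overlapped, since LPS replicate 10 was lower than sham replicate 8. Sham replicate 6 lay at the floor of the scale. miR-144-3p thus passed the detection filter through the LPS arrays alone, and the size of its difference depends on sham values that were not detected. With those values as they stand the fitted difference was 2.46 ± 0.68 log2 (SE, limma adjusted p = 0.0235).

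The call of miR-144-3p was lost when any of 5 arrays was left out, LPS 6, 11 or 12 or sham 6 or 7, with adjusted p from 0.0511 to 0.0656. It was also lost without a filter (adjusted p = 0.245) and in the deposited table (adjusted p = 0.0873), and over all its 23 alternatives adjusted p ran from 0.00919 to 0.245. The difference was 0.9973 log2 with normexp background correction and 4.11 in the deposited table. With only miRNAs detected on all arrays it was not tested. miR-451a, the abundant red cell miRNA, had levels of 3.68, 0.90, 3.16 and 2.48 on LPS replicates 6, 10, 11 and 12, against 0.53, -1.09, -0.48 and 1.54 on sham replicates 5, 6, 7 and 8. Both miRNAs of the red cell list were called higher (14.8% of all tested miRNAs were), but miR-144-3p entered the test through the LPS arrays alone. The count of this list is therefore not read further. miR-451a had a difference of 2.43 log2 (limma adjusted p = 0.0285), a call not followed under the alternatives. Its groups overlapped too, since LPS replicate 10 was lower than sham replicate 8. The part of red cells in the value of miR-144-3p was not tested.

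The miRNAs whose levels over the 8 arrays lay closest to each member were found among the other 305 detected on all 8 arrays. Likeness was the mean absolute difference between log2 levels after each miRNA was centred on its own mean. For miR-26a-5p the closest were miR-99a-5p, at 0.01 log2, miR-100-5p, at 0.01, and miR-200a-3p, at 0.02, against a median of 0.13 over the candidates. miR-26b-5p stood 16th from miR-26a-5p, at 0.04. For miR-26b-5p the closest were miR-200a-3p, at 0.025, miR-322-5p, at 0.0258, and miR-23b-3p, at 0.0268, against a median of 0.13.

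For miR-101a-3p the closest of all was miR-101c, at 0.02 log2, whose probes pair with it fully. The closest non-members were miR-340-5p, at 0.03, and miR-16-5p and miR-15a-5p, at 0.04 each, against a median of 0.14. For miR-101c they were miR-15a-5p, miR-186-5p and miR-340-5p, at 0.04 each. The 8 arrays share one slide and one scaling step, and these values are descriptions only.

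The members' differences depended on how arrays were scaled. Scaling to 2 control probes, taken here as spike-ins although the files do not state their role, gave -0.21 log2 for miR-26a-5p (limma adjusted p = 0.0233; 0.00296 to 0.991 over its 24 alternatives) and -0.19 for miR-26b-5p (limma adjusted p = 0.0484; 0.0484 to 0.951 over its 24 alternatives). Both control probes were brighter on every LPS array than on any sham array, at 11.59 to 11.90 against 11.42 to 11.51 log2 units of unscaled signal for one and 9.96 to 10.07 against 9.86 to 9.92 for the other. Other control probes went different ways. The probes hur_6 and mr_1 were also brighter on every LPS array, and hur_2 was dimmer on every one. For dmr_3, dmr_6, hur_1 and hur_4 the groups overlapped. Spike-in scaling moved the median of all tested miRNAs to -0.23. From it miR-26a-5p differed by 0.01 and miR-26b-5p by 0.03, as with the scaling used throughout. A single factor per array shifts all miRNAs above the floor together, so these distances could not change and do not bear on the calls. Quantile scaling gave -0.19 for miR-26a-5p (limma adjusted p = 0.00296) while the median of all miRNAs stayed at -0.08. Under the other 22 alternatives no member passed the test, and the lowest adjusted p of any member was 0.178.

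**Figure D4:**
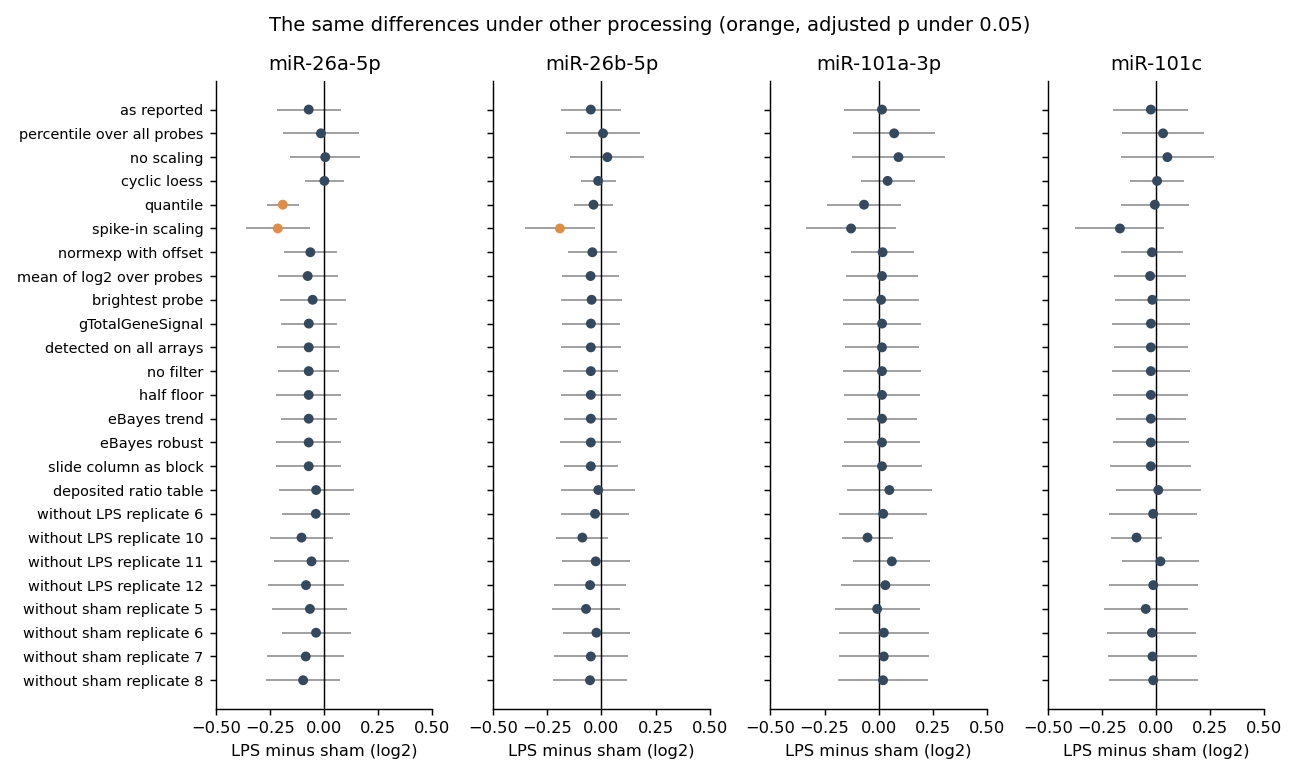
LPS minus sham difference (log2) of each detected member as reported and under 24 alternatives, with 95% intervals; orange marks an adjusted p under 0.05. The orange points are miR-26a-5p with quantile scaling (-0.19) and spike-in scaling (-0.21) and miR-26b-5p with spike-in scaling (-0.19), and the points of miR-101a-3p (-0.13 to 0.09) and miR-101c (-0.17 to 0.05) lie on both sides of 0.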

How the data were processed

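The authors deposited spot intensities, the scanner output of 8 arrays, which, per the file headers, were background-subtracted with spatial detrending and not scaled between arrays. Agilent Feature Extraction 12.0.3.1 is named in the submitters' processing notes. The authors also deposited 1 linear ratio per miRNA and array, whose scale factors are not given in the sources used here, used as an alternative only. From the intensities, outlier spots were dropped, spots of a probe averaged, and each array scaled by the 75th percentile of the 551 probes well above background on all arrays (more than 50% of spots). Probes of a miRNA were summed, floored at -4.68 log2 (0.851% of tested values) and log2-transformed. Tests covered 338 miRNAs, those seen on all arrays of either group, with limma 3.58.1 in R 4.3.3 (lmFit, eBayes, 2-sided, without covariates). Benjamini-Hochberg adjustment and a threshold of 0.05 were used. The procedure was checked on simulated data with independent noise and changes larger than any member's difference. That check does not cover differences of the members' size. The number of arrays limits the precision. Ratios within arrays were compared by exact permutation. The 24 alternatives covered scaling, background, probe summary, filter, floor, variance model, slide column, the deposited table and leaving out each array. All members, their partner strands, every tested miRNA of the list linked to Ezh2, cell type markers and the 3 most alike non-members may be named. The members and lists were chosen with earlier results of these data known. Sequences and positions are from RefSeq tables (GRCm38.p6), in which all 5 members were found, and probe sequences from the files.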

Additional observations from a re-analysis of the deposited data

Results flagged for a closer look

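For 24 groups of 4 arrays, the lowest or highest array was compared with the others by Dixon's ratio at its 95% critical value, and 2 arrays stood apart, against 1.2 by chance at about 1 in 20 groups. miR-101a-3p on sham replicate 5 was at 1.99, below the other sham arrays at 2.07 to 2.08 log2. miR-30d-5p on sham replicate 6 was at 1.665, above the other sham arrays at 1.38 to 1.41 log2.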

How the results depend on the processing

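No paired analysis was possible because the groups share only the replicate number 6. Slide column, with 1 array of each group in each, was fitted as a block instead, and no member was called. Where a value turned sign or moved past the threshold, the cause was not tested. miR-26a-5p was at 0.0050 log2 unscaled and 0.0010 with cyclic loess, -0.191 with quantile and -0.214 with spike-in scaling. miR-26b-5p was at 0.0072 with the percentile over all probes, 0.0272 unscaled and -0.192 with spike-in scaling. miR-101a-3p was at -0.0679 with quantile and -0.128 with spike-in scaling. miR-101c was at 0.0326 with the percentile over all probes, 0.0525 unscaled, 0.0049 with cyclic loess and 0.0105 in the deposited table. Leaving out each array gave -0.105 to -0.0376 for miR-26a-5p, -0.0882 to -0.0233 for miR-26b-5p, -0.0517 to 0.0605 for miR-101a-3p and -0.0898 to 0.0204 for miR-101c. Members called were 1 with quantile and 2 with spike-in scaling, against 0 as reported. The ratio of miR-101c over miR-101a-3p, whose alternatives were chosen after seeing the data, ranged from -0.0431 to 0.0624 over 15 alternatives, positive with quantile scaling only.

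Of all tested miRNAs, 136 were called, 60 without a filter and 80 with slide column as a block, and 88 to 151 leaving out each array. The 50 higher calls were 29 without a filter and 33 to 54 leaving out each array. The 86 lower calls were 53 with the percentile over all probes, 49 unscaled, 150 with spike-in scaling, 31 without a filter, 45 with the column block, 53 in the deposited table and 52 to 105 leaving out each array (56 without LPS 11, 55 without LPS 12, 52 without sham 6 and 56 without sham 7). Of the list linked to Ezh2, higher calls were 0 with detection on all arrays, without a filter and in the deposited table, and 0 to 1 leaving out each array. Lower calls were 3 with quantile and 3 with spike-in scaling, against 91 and 150 of all 338 tested miRNAs, and 0 leaving out each array.

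let-7a-5p was at 0.0258 with the percentile over all probes, 0.0458 unscaled, 0.0689 with cyclic loess and 0.0037 in the deposited table, and was called lower with quantile (-0.175) and spike-in scaling (-0.173). let-7b-5p was at -0.128 with quantile scaling (called lower), -0.140 with spike-in scaling, -0.0005 with the mean of log2 over probes and -0.0272 to 0.0427 leaving out each array. let-7c-5p was at 0.0520 with the percentile over all probes, 0.0720 unscaled, 0.0865 with cyclic loess, 0.0025 with normexp, 0.0302 with the brightest probe, 0.0299 in the deposited table and -0.0293 to 0.0250 leaving out each array, and was called lower with quantile scaling (-0.170). miR-25-3p was at 0.0550 with the percentile over all probes, 0.0749 unscaled, 0.0522 with cyclic loess, 0.0160 with the brightest probe, 0.0329 in the deposited table and -0.0201 to 0.0310 leaving out each array. miR-98-5p (-0.244) and miR-30d-5p (-0.288) were called lower with spike-in scaling. Signals near background bound what can be said of miR-101b-3p.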

Other observations

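Across the array, 210 miRNAs had a pair of probes above background. The LPS minus sham difference was lower with the shorter probe than with the longer probe in 142 of them (67.6%), with a median of -0.02 log2 for the shorter minus the longer probe and quartiles of -0.06 and 0.01. Among the members it was lower with the shorter probe for miR-26a-5p (-0.05), miR-26b-5p (-0.01) and miR-101c (-0.02), and higher for miR-101a-3p (0.01).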
